A study of Sus scrofa with 15 samples.

Results

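The NF-κB subunits and IκB proteins were examined in piglet liver after an injection of lipopolysaccharide (LPS), a cell wall component of Gram-negative bacteria. The family was taken as 10 genes by pig Ensembl symbol, and all 10 had a row among the 31908 genes of the count table. The Rel subunits were NFKB1, NFKB2, REL, RELA and RELB, and the IκB proteins were NFKBIA, NFKBIB, NFKBIE, NFKBIZ and BCL3. All livers came from growing male pigs that crossed Duroc, Large White and Landrace. The LPS group had been injected intraperitoneally with 80 μg/kg of LPS and the CON group with sterile saline, and tissue was taken 4 h later. Each group was represented by 3 input libraries of polyadenylated RNA, set aside before m6A immunoprecipitation. One question of the study was how this signaling pathway responds to LPS in the liver.

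NF-κB is a family of transcription factors that act as dimers of Rel subunits. In resting cells the dimers are held in the cytoplasm by classical IκB proteins, which bind them through ankyrin repeats. Signals from Toll-like or NOD-like receptors activate the IκB kinase (IKK) complex, the IκB protein is phosphorylated and degraded, and the freed dimer enters the nucleus. Several of the genes switched on there encode IκB proteins and Rel subunits themselves, so the pathway writes its own feedback. In the liver both hepatocytes and Kupffer cells, the resident macrophages, use it in the acute response to bacterial products.

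Library totals ran from 5927348 to 10351491 counts for CON and from 4348478 to 19967417 counts for LPS, with LPS replicate 3 the deepest. All 11 hepatocyte markers with a row were detected in every library, although SERPINA1 had only 1.23 to 7.20 CPM (read counts scaled to a common library size). The LPS libraries were unlike each other: across genes, log2 CPM correlated at 0.907 between LPS replicates 1 and 2, 0.903 between LPS replicates 1 and 3, and 0.852 between LPS replicates 2 and 3, against 0.943 to 0.953 among the CON libraries. LPS replicate 2 correlated with the CON libraries at 0.923 to 0.945, and LPS replicates 1 and 3 at 0.837 to 0.899. Results are therefore given with and without LPS replicate 2 and with and without LPS replicate 3. Since LPS replicate 2 was picked for its likeness to the CON libraries, calls without it rest on that choice and are no separate support. The p-values measure the spread between these libraries, and nothing in the labels states that each came from a different animal. Below, a saline or LPS liver means the liver sample of a single library.

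In the saline livers NFKBIA and RELA were the most abundant transcripts of the family. Levels of different genes were compared as CPM per kb of exon, since longer genes collect more reads. NFKBIA, which encodes IκB-α, the inhibitor that is rapidly made again after each round of signaling, was at 39.6 ± 7.2 CPM per kb (SD, n = 3). RELA, which encodes p65, the main activating subunit, followed at 36.7 ± 5.1 CPM per kb, and the ranges of these top genes overlapped. RELA lay above NFKB2 in every CON library without overlap. From NFKB2 at 21.7 ± 9.4 CPM per kb through RELB, BCL3, NFKBIB and NFKBIE to NFKB1 at 9.47 ± 0.73 CPM per kb, each gene overlapped with the next in the order. NFKBIZ was lower, at 2.36 ± 0.45 CPM per kb, and REL, best known from lymphocytes and myeloid cells, was lowest, at 1.39 ± 0.34 CPM per kb. Both steps at the low end showed no overlap among CON libraries. By group mean NFKBIA was again first in the LPS livers, at 85.7 ± 81.6 CPM per kb, and BCL3 stood next to it, at 69.6 ± 53.5 CPM per kb. NFKB2, RELA, RELB, NFKBIB, NFKBIE, NFKB1, NFKBIZ and REL followed. In that order each gene overlapped with the next, except that NFKB1 lay above NFKBIZ in every LPS library. The highest member differed by library: BCL3 in LPS replicate 1, at 109 CPM per kb, RELA in LPS replicate 2, at 34.8, and NFKBIA in LPS replicate 3, at 179.

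The 10 family members were all tested, and the fitted log2 fold change was above 0 for all 10, with a median of 0.91 beside 0.01 over the 12774 tested genes. None of them passed the test with all 6 libraries. A gene was called when its adjusted p, from edgeR's quasi-likelihood test over all tested genes, was below 0.05 and its fold change above 1.5. The background was 0.0548% of tested genes called higher in the LPS group and 0% called lower. At an unadjusted p below 0.05, BCL3, NFKBIB and NFKBIE were higher and no member was lower, where 6.18% of tested genes were higher and 6.33% lower. DESeq2 called 1 member, BCL3, higher, against 1.85% of the genes to which it gave an adjusted p. In no member did all 3 LPS libraries exceed all 3 CON libraries or all lie below them, a separation seen in 6.52% of tested genes upward and 9.80% downward.

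The LPS libraries differed widely from each other. In LPS replicate 3, 10 of 10 members lay above every CON library, where 34.9% of tested genes did so. LPS replicate 1 had 6 of 10 members above every CON library, against 32.1% of tested genes. LPS replicate 2 had 0 of 10 above and 4 of 10 below every CON library, against 23.3% and 26.5% of tested genes. Set against the CON mean, LPS replicate 1 had a median log2 difference over the family of 0.39, LPS replicate 2 one of -0.32 and LPS replicate 3 one of 1.80, while single CON libraries gave -0.26 to 0.19. The same median over all tested genes lay between -0.06 and -0.01 in the LPS libraries. The count for LPS replicate 3 became 9 of 10 when libraries were scaled to total counts, the exception being RELA, and under that scaling 17.1% of tested genes lay above and 57.6% below every CON library.

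**Figure D1:**
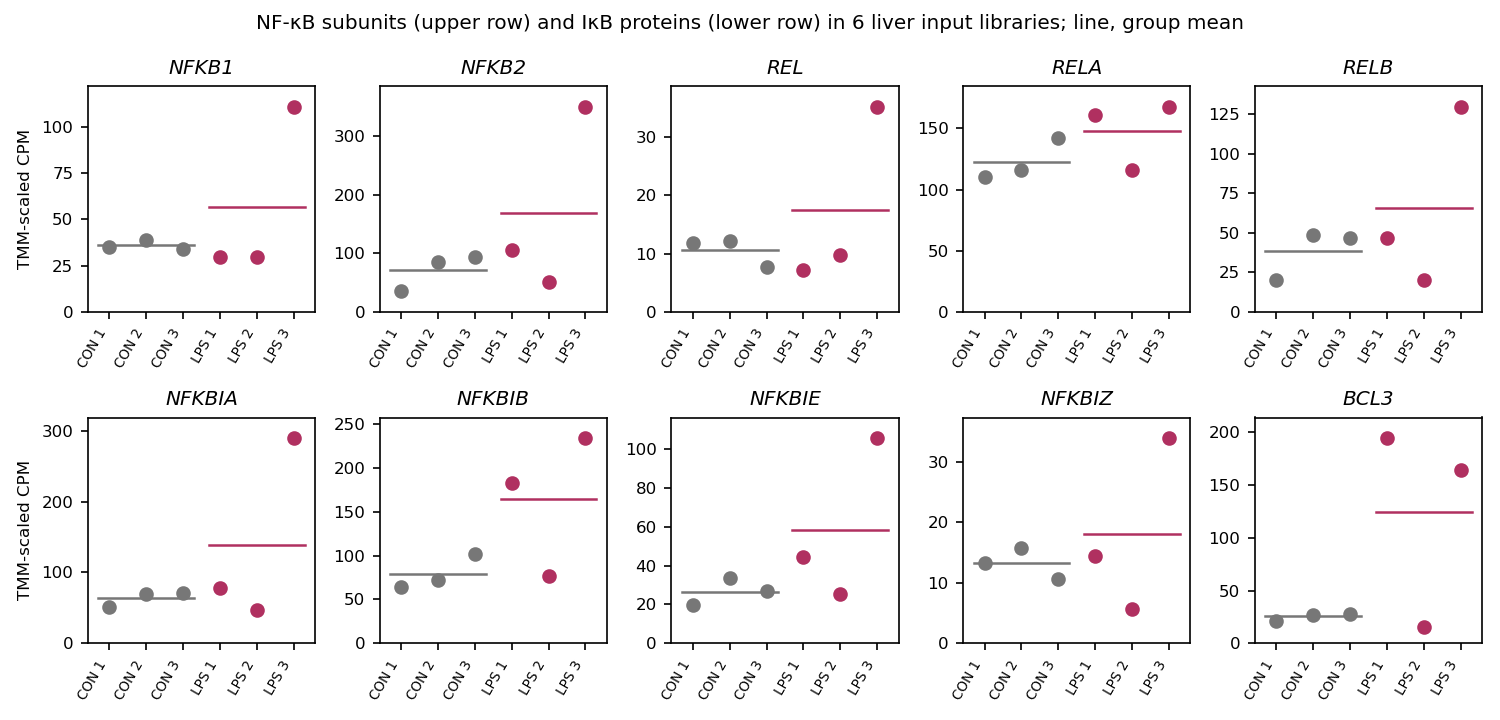
TMM-scaled CPM (vertical axes, from 0) of each gene in the 3 CON libraries (grey) and the 3 LPS libraries (red), with the group mean as a line. LPS replicate 3 was the highest library for 9 genes, BCL3 in LPS replicate 1 being the exception, while LPS replicate 2 lay within or below the CON values in all 10.

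**Figure D2:**
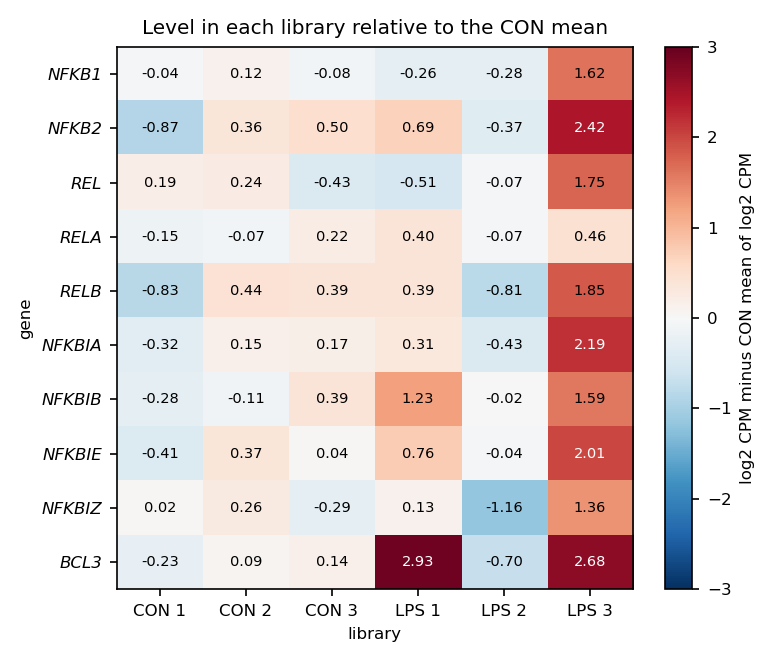
Log2 CPM of each gene (rows) minus its mean over the CON libraries, in each library (columns), with the value printed in each cell. LPS replicate 3 was above 0 in every row, from 0.46 for RELA to 2.68 for BCL3, LPS replicate 2 was below 0 in every row, and the highest cell was BCL3 in LPS replicate 1 at 2.93.

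Positions are given as in the count table, whose gene models overlap RefSeq Sscrofa11.1 for all 10 members, and values cover the exons of each gene. Among the Rel subunits, RELA varied least between the LPS livers, and NFKB1 least between the saline livers. RELA (ENSSSCG00000012981, chr2:6593969-6603471, plus strand) had 110, 116 and 142 CPM in CON replicates 1, 2 and 3 and 161, 116 and 168 CPM in LPS replicates 1, 2 and 3. A pair of LPS livers lay above the highest saline liver and the other lay inside the saline range. Its log2 fold change was 0.27 ± 0.30 (SE, edgeR adjusted p = 0.752), with a 95% interval from -0.41 to 0.95. The highest LPS value was 1.45 times the lowest, a smaller ratio than the median of 2.04 over all tested genes.

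NFKB1 encodes p105, which is processed to the p50 subunit and, like the IκB proteins, carries ankyrin repeats. NFKB1 (ENSSSCG00000030957, chr8:118390637-118506691, minus strand) had 34.9, 39.1 and 33.8 CPM in the CON libraries, the tightest group of the family, and 29.9, 29.4 and 111 CPM in the LPS libraries. Thus LPS replicates 1 and 2 lay just below all saline livers and LPS replicate 3 stood far above them. The log2 fold change was 0.67 ± 0.50 (SE, edgeR adjusted p = 0.626). It became -0.26 ± 0.31 without LPS replicate 3 (edgeR adjusted p = 0.795), and over all alternatives its adjusted p lay between 0.228 and 0.850.

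NFKB2 encodes p100, the precursor of p52 and the brake of the noncanonical pathway, and RELB encodes the usual partner of p52. NFKB2 (ENSSSCG00000010580, chr14:113406004-113414173, plus strand) had 35.7, 84.2 and 92.8 CPM in the CON libraries and 105, 50.7 and 350 CPM in the LPS libraries. RELB (ENSSSCG00000038879, chr6:51444636-51480320, plus strand) had 20.1, 48.7 and 46.9 CPM in the CON libraries and 46.9, 20.3 and 130 CPM in the LPS libraries. Both genes were low in CON replicate 1 and LPS replicate 2 and high in LPS replicate 3, so for both the groups overlapped. The log2 fold change of NFKB2 was 1.25 ± 0.66 (SE, edgeR adjusted p = 0.476), the largest of the Rel subunits, and that of RELB was 0.77 ± 0.62 (SE, edgeR adjusted p = 0.645). Without LPS replicate 3 they were 0.15 ± 0.46 for NFKB2 and -0.19 ± 0.47 for RELB, with edgeR adjusted p of 0.929 and 0.913.

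REL (ENSSSCG00000008388, chr3:80870860-80911956, minus strand) encodes c-Rel. It had 11.8, 12.2 and 7.61 CPM in the CON libraries and 7.20, 9.82 and 35.2 CPM in the LPS libraries. Only LPS replicate 3 lay outside the upper end of the saline range. REL was the least counted member, with 33 reads in LPS replicate 1, for which the exact 95% Poisson interval was 4.95 to 10.1 CPM and covers counting error only. The log2 fold change was 0.75 ± 0.56 (SE, edgeR adjusted p = 0.626), and -0.28 ± 0.39 without LPS replicate 3 (edgeR adjusted p = 0.830).

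The IκB proteins were led by BCL3, an atypical, nuclear IκB protein that binds p50 and p52 homodimers. BCL3 (ENSSSCG00000027426, chr6:51256033-51265355, plus strand) had 21.5, 27.0 and 28.1 CPM in the CON libraries and 195, 15.5 and 164 CPM in the LPS libraries. LPS replicates 1 and 3 were 7.62 and 6.43 times the CON mean, whereas LPS replicate 2 was 0.608 times that mean and below every saline liver. The log2 fold change was 2.29 ± 0.73 (SE, edgeR adjusted p = 0.263), the largest of the family and higher than that of 98.7% of tested genes. With DESeq2 it was 2.33 ± 0.64 (SE, DESeq2 adjusted p = 0.0167). The ratio of the highest to the lowest LPS value, 12.5, was also the largest of the family. Over all alternatives the log2 fold change of BCL3 stayed between 1.65 and 2.82 and its adjusted p ranged from 6.58e-06 to 0.720.

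NFKBIB and NFKBIE encode IκB-β and IκB-ε, classical inhibitors that hold NF-κB dimers in the cytoplasm. NFKBIB (ENSSSCG00000026904, chr6:47703636-47712664, plus strand) had 64.0, 72.0 and 102 CPM in the CON libraries and 183, 76.7 and 234 CPM in the LPS libraries. NFKBIE (ENSSSCG00000001703, chr7:39255075-39263339, minus strand) had 19.5, 33.7 and 26.7 CPM in the CON libraries and 44.3, 25.4 and 106 CPM in the LPS libraries. In both genes LPS replicates 1 and 3 lay above all saline livers and LPS replicate 2 lay among them. The log2 fold change was 1.05 ± 0.43 for NFKBIB (SE, edgeR adjusted p = 0.359) and 1.14 ± 0.49 for NFKBIE (SE, edgeR adjusted p = 0.386). NFKBIB shares 28 exonic bases, 0.43% of its exonic length, with CCER2 on the opposite strand, which had at most 1 count per library.

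NFKBIA (ENSSSCG00000001952, chr7:64508016-64558057, plus strand) had 50.7, 70.0 and 71.4 CPM in the CON libraries and 78.7, 47.0 and 290 CPM in the LPS libraries. LPS replicate 3 was 4.52 times the CON mean, LPS replicate 1 lay just above the saline range and LPS replicate 2 just below it. Its log2 fold change was 1.12 ± 0.60 (SE, edgeR adjusted p = 0.486), and -0.01 ± 0.35 without LPS replicate 3 (edgeR adjusted p = 0.992). NFKBIZ encodes IκB-ζ, a nuclear member that works as a cofactor at secondary response genes. NFKBIZ (ENSSSCG00000011951, chr13:157261418-157294478, minus strand) had 13.3, 15.8 and 10.7 CPM in the CON libraries and 14.4, 5.73 and 33.9 CPM in the LPS libraries. Its log2 fold change was 0.46 ± 0.55 (SE, edgeR adjusted p = 0.768), the smallest of the IκB proteins, and it turned to -0.39 ± 0.43 without LPS replicate 3 (edgeR adjusted p = 0.781).

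Leaving out single LPS libraries changed the fold changes of the family. Without LPS replicate 2, the LPS library most like the CON libraries, BCL3 and NFKBIB were called higher, where 3.76% of tested genes were. Their log2 fold changes were 2.82 ± 0.34 (SE, edgeR adjusted p = 0.00151) and 1.40 ± 0.35 (SE, edgeR adjusted p = 0.0357). Over all tested genes that fit called 512 higher, against 7 with all 6 libraries. NFKBIE narrowly missed the threshold there, at 1.505 ± 0.42 (SE, edgeR adjusted p = 0.0515), and the Rel subunits had a median log2 fold change of 1.05 with none called. Over its alternatives the adjusted p of NFKBIB reached 0.756 and that of NFKBIE 0.773. Without LPS replicate 3 the log2 fold changes of NFKB1, REL, RELB, NFKBIA and NFKBIZ fell below 0, while those of NFKB2, RELA, NFKBIB, NFKBIE and BCL3 stayed above 0. Most of these values were smaller than their SE, such as -0.01 ± 0.35 for NFKBIA and 0.15 ± 0.46 for NFKB2. Their signs therefore do not divide the family. NFKBIE was then at 0.40 ± 0.37 (SE, edgeR adjusted p = 0.724) and NFKBIB at 0.73 ± 0.40 (SE, edgeR adjusted p = 0.515). The median of the family was then 0.07 beside -0.03 over all tested genes, and no member was called, against 0.310% of tested genes. BCL3 kept most of its size without LPS replicate 3, with 2.06 ± 0.90 (SE, edgeR adjusted p = 0.444). It was called when genes with low counts were not filtered out, where 2.28% of genes were called higher.

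**Figure D3:**
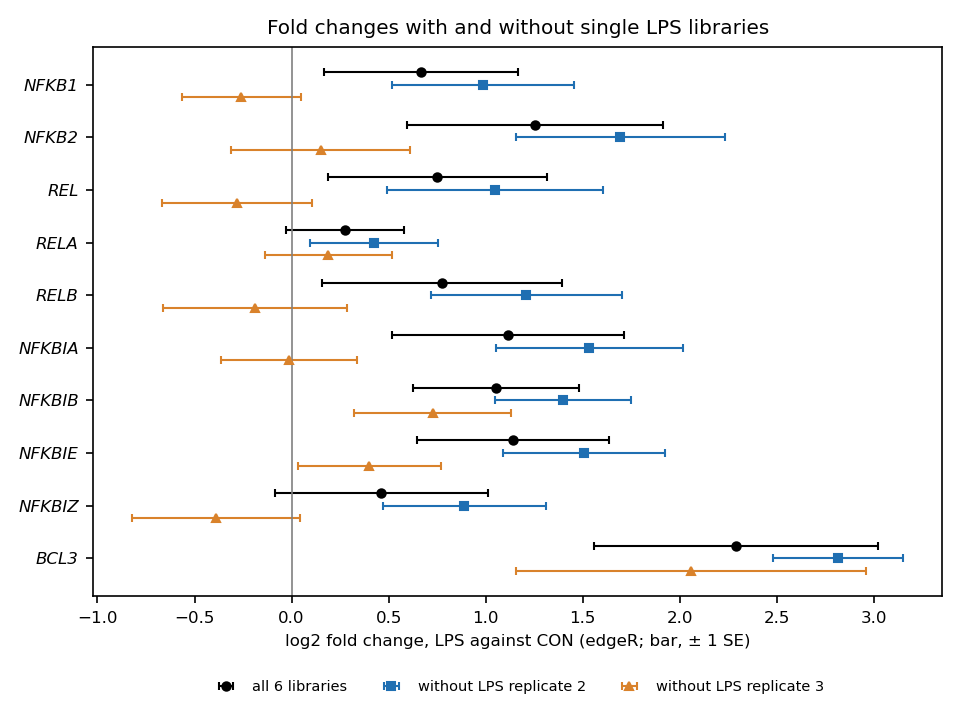
Log2 fold change of LPS against CON (horizontal axis) for each gene, with a bar of ± 1 SE from edgeR, for all 6 libraries (black circles), without LPS replicate 2 (blue squares) and without LPS replicate 3 (orange triangles). The orange points of 5 genes lie below 0, whereas BCL3 stays between 2.06 and 2.82 in the 3 fits.

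The makeup of the family's transcripts, which does not depend on how libraries are scaled, also differed between the LPS livers. Each member's CPM per kb was divided by the sum over the 10 genes of the same library. BCL3 made up 8.26% to 9.46% of that sum in the CON libraries and 34.4%, 6.71% and 15.2% in LPS replicates 1, 2 and 3. RELA made up 19.3% to 26.0% in the CON libraries and 15.2%, 26.9% and 8.32% in the LPS libraries. In LPS replicates 1 and 3 the share of BCL3 was above and that of RELA below every saline liver, and LPS replicate 2 went the other way for both. Shares of a sum are tied to each other, so a lower share is not a lower level. RELA itself had 161 and 168 CPM in LPS replicates 1 and 3, above the 110 to 142 CPM of the CON libraries. NFKBIA relative to RELA was 0.952, 1.25 and 1.04 in the CON libraries and 1.01, 0.836 and 3.57 in the LPS libraries, so LPS replicate 3 alone left the saline range upward. Among the IκB proteins NFKBIA held 49.4% to 50.3% of the sum in the CON libraries, 47.7% and 50.3% in LPS replicates 2 and 3, and 23.7% in LPS replicate 1, in which BCL3 held 52.7%.

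**Figure D4:**
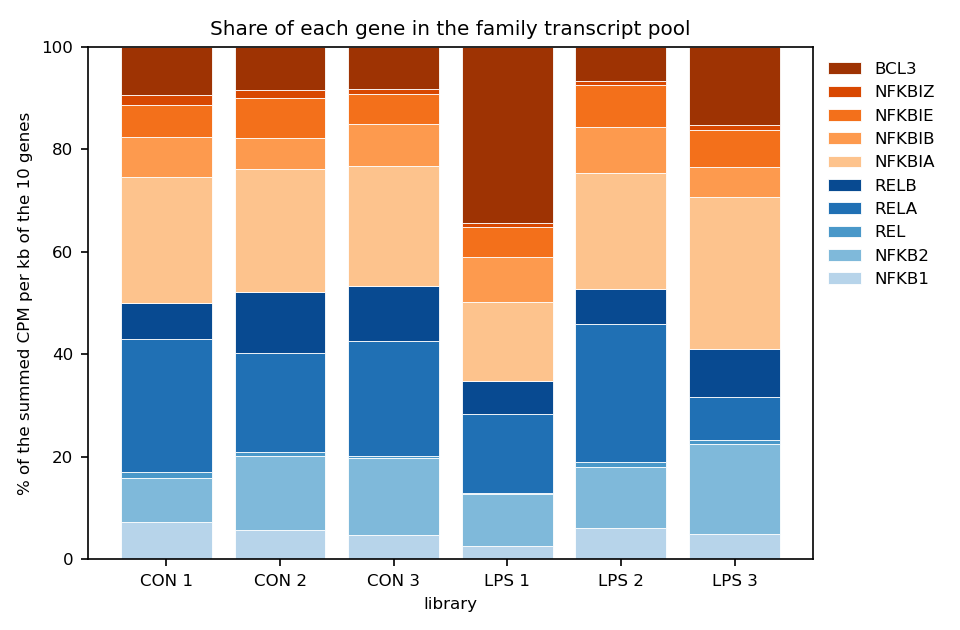
Share of each gene in the summed CPM per kb of the 10 genes (vertical axis, %) in each library, with Rel subunits in blue and IκB proteins in orange. BCL3, at the top of each bar, takes 34.4% of LPS replicate 1 and 15.2% of LPS replicate 3, and between 6.71% and 9.46% of the other 4 libraries.

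Of 26 listed genes of the IKK complex and its activating kinases and adaptors, 24 were tested, 17 had a log2 fold change above 0 and 7 below 0, with a median of 0.37. None was called by edgeR or by DESeq2, where 0.0548% and 1.85% of genes were called higher, and none was past an unadjusted p of 0.05, where 6.18% of tested genes were higher and 6.33% lower. For the calls at the adjusted threshold, a count of 0 among 24 genes is close to the shares of all genes called. IKBKB, which encodes the catalytic kinase IKKβ, had a log2 fold change of 0.86 ± 0.54 (SE, edgeR adjusted p = 0.550). CHUK, which encodes IKKα, was at 0.33 ± 0.38 and IKBKG, which encodes the scaffold NEMO, at -0.28 ± 0.33 (SE, edgeR adjusted p = 0.758 and 0.764). IKBKB and CHUK lay above every CON library only in LPS replicate 3, and IKBKG in no LPS library. These 3 subunits were chosen for mention with their values in view.

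The listed brakes on the pathway numbered 21, and all were tested, with 16 log2 fold changes above 0, 5 below 0 and a median of 0.34. EdgeR called none at the adjusted threshold, where 0.0548% of tested genes were called higher. At an unadjusted p below 0.05, 4 were higher and 0 lower, where 6.18% of tested genes were higher and 6.33% lower. These 4 were TNIP3, TNIP1, TNIP2 and TRAF1. TNIP1, a ubiquitin-binding partner of the deubiquitinase A20, had 92.5, 122 and 124 CPM in the CON libraries and 286, 136 and 440 CPM in the LPS libraries. It was higher in 3 of 3 LPS libraries than in every CON library. Such a separation was seen in 2 of 21 brakes and in 6.52% of tested genes. The log2 fold change of TNIP1 was 1.34 ± 0.43 (SE, edgeR adjusted p = 0.257). TNIP3, of the same protein family, also separated the groups, at 1.11 ± 0.56 CPM in the CON group and 6.18 ± 5.73 CPM in the LPS group (SD, n = 3). The gap was narrow at this low level, between 1.72 CPM in CON replicate 2 and 2.29 CPM in LPS replicate 2. The counting error of TNIP3 was not assessed. DESeq2 called TNIP3 (DESeq2 adjusted p = 0.0262), where 1.85% of genes with an adjusted p were called higher. TNIP2 and TRAF1 had log2 fold changes of 1.22 ± 0.53 and 1.501 ± 0.59 (SE, edgeR adjusted p = 0.384 and 0.350), with LPS replicate 2 inside the saline range. Without LPS replicate 2, left out for its likeness to the CON libraries, all 4 were called by edgeR, where 3.76% of tested genes were called higher.

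Genes known as NF-κB targets included the only pathway gene called by edgeR with all 6 libraries. Of 47 listed targets, 7 of which also stand in the other pathway lists, 37 were tested, and 33 had a log2 fold change above 0 and 4 below 0, with a median of 1.34. At an unadjusted p below 0.05, 15 were higher and 0 lower, where 6.18% of tested genes were higher and 6.33% lower. DESeq2 called 5 targets higher, against 1.85% of the genes to which it gave an adjusted p. With all 6 libraries edgeR called 1 higher, against 0.0548% of tested genes. The called gene was LCN2, which encodes an iron-withholding secreted protein, with 2.95, 5.00 and 4.94 CPM in the CON libraries and 114, 29.4 and 129 CPM in the LPS libraries. Its log2 fold change was 4.41 ± 0.58 (SE, edgeR adjusted p = 0.0379). SOD2, the mitochondrial superoxide dismutase, had 54.2, 82.8 and 94.5 CPM in the CON libraries and 959, 343 and 2143 CPM in the LPS libraries, a log2 fold change of 3.90 ± 0.64 (SE, edgeR adjusted p = 0.0715). PTX3, a secreted pattern-recognition protein, was at 0.766 ± 0.887 CPM in the CON group and 8.55 ± 6.28 CPM in the LPS group (SD, n = 3, edgeR adjusted p = 0.163). In these 3 genes every LPS library lay above every CON library, as in 4 of the 37 targets and in 6.52% of tested genes. CXCL2, a neutrophil-attracting chemokine, had 3.40, 2.19 and 4.94 CPM in the CON libraries and 56.0, 1.47 and 136 CPM in the LPS libraries (edgeR adjusted p = 0.220). Like BCL3, it was high in LPS replicates 1 and 3 and below every CON library in LPS replicate 2. For CXCL2 that last gap, 1.47 against 2.19 CPM, was small at a low level, and its counting error was not assessed. Without LPS replicate 1 edgeR called no target, and 1 gene higher over all tested genes. Without any one CON library it called no target, and 0 genes over all tested genes. Without LPS replicate 2, left out for its likeness to the CON libraries, it called 16 targets, where 3.76% of tested genes were called higher.

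The targets also differed by library. In LPS replicate 2, 6 of 37 targets (16.2%) lay above every CON library and 22 (59.5%) below, against 23.3% and 26.5% of tested genes. The 6, named after their values were seen, were SOD2, PTX3, LCN2, TNIP1, CFB and F3. LPS replicate 1 had a median log2 difference over the targets of 0.64, LPS replicate 2 one of -0.53 and LPS replicate 3 one of 2.42, the same order of libraries as for the family.

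**Figure D5:**
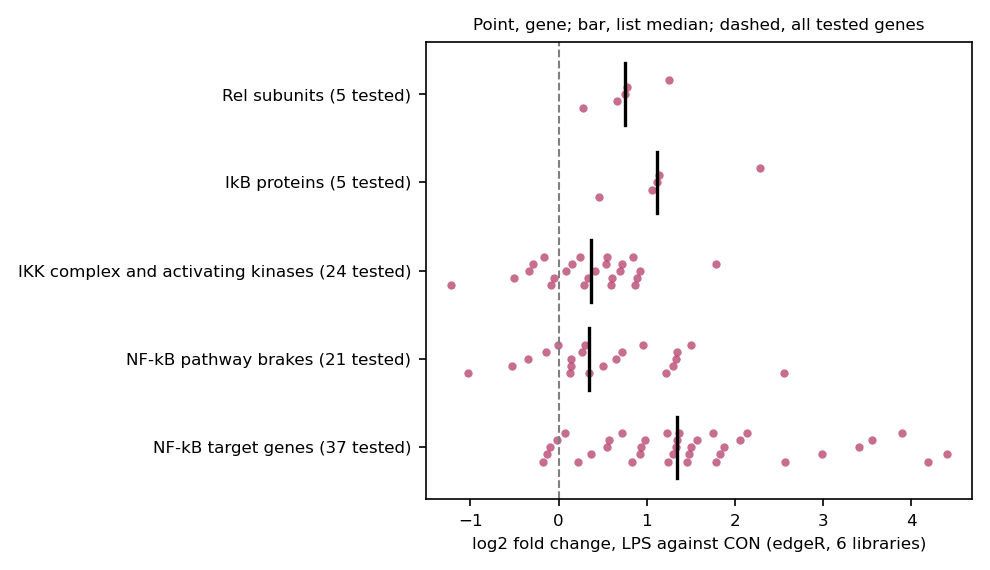
Log2 fold change of LPS against CON (horizontal axis) of each tested gene (points) in 5 lists of NF-κB pathway genes, with the list median (black bar) and the median of all tested genes (dashed line at 0.01). The medians are 0.75 for the Rel subunits, 1.12 for the IκB proteins, 0.37 for the IKK list, 0.34 for the brakes and 1.34 for the targets.

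In whole liver, fewer cells of a type and less RNA per cell cannot be told apart, and several family members are also expressed by blood leukocytes. Of 12 listed neutrophil markers 8 had a row, and their summed level was 36.7 to 67.8 CPM in the CON libraries and 192, 122 and 339 CPM in LPS replicates 1, 2 and 3. For 6 of the 8 the mean was higher in the LPS group, and MMP8 was at 0 in every CON library. MPO and ELANE, made by immature neutrophils, were between 0.273 and 1.88 CPM in all libraries. The Kupffer cell or macrophage sum, over 11 of 12 markers, was 2501 to 4064 CPM in the CON libraries and 2724 to 4198 CPM in the LPS libraries. CD14 gave 518 to 821 CPM of that sum in the CON libraries and 1354, 805 and 2328 CPM in LPS replicates 1, 2 and 3. Only CD14 had a higher mean in the LPS group, and 10 of the 11 log2 fold changes were below 0, with a median of -0.48. The hepatocyte sum was 74324 to 93087 CPM in the CON libraries and 63625, 62022 and 123292 CPM in LPS replicates 1, 2 and 3, so that every LPS liver lay outside the saline range. In LPS replicate 3 the acute-phase gene FGB gave 44960 CPM of that sum, while 7 of the 11 markers had a lower mean in the LPS group. ALB, CYP2E1 and ASGR1 were below every saline liver in all 3 LPS livers, as were 9.80% of tested genes. FGB was above every saline liver in all 3 LPS livers, as were 6.52% of tested genes. The sums for endothelial cells, stellate cells or cholangiocytes, lymphocytes of the B lineage, and T or NK cells overlapped between the groups. The part of cell makeup in the family's values was not tested.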

How the data were processed

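The authors deposited raw read counts for 31908 Ensembl pig genes in 6 input columns, 3 per group, with exon coordinates and gene length in bases. No column was left unmapped (0), and CON replicates 1 and 2 have 2 label entries but 1 column each. The submitters' processing notes name cutadapt 1.9.3 and HISAT2, and the builds galGal6 and hg38, neither of them a pig build. The counting program, with its treatment of strand and multi-mapped reads, was not given in the sources used here. Positions of 98.87% of 13830 compared symbols, all 10 family members included, overlapped those in RefSeq Sscrofa11.1. Symbols were taken from a table that matched 15029 identifiers.

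Counts were fitted in R 4.3.3 with edgeR 4.0.16 (filterByExpr, minimum count 10; TMM; robust glmQLFit and glmQLFTest), over 12774 genes. A call required a fold above 1.5 and an adjusted p (Benjamini-Hochberg) below 0.05, standard errors are the log2 fold change over the square root of the test statistic, and CPM are TMM-scaled. The steps were tested on simulated data. Alternatives were DESeq2 1.42.0, a replicate block, voom in limma 3.58.1, scaling by RLE factors or by total counts, no filter, a filter of 10 counts in all libraries, no fold threshold, and leaving out each library. Counts of members above the CON libraries were also taken under RLE factors and total counts, an alternative chosen after seeing the data.

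The family, the pathway and marker lists and the thresholds were chosen with earlier results of these data known. Besides the family, named pathway genes were up to 4 per list and direction with the smallest p below 0.05. IKBKB, CHUK, IKBKG, CFB, F3 and single cell type markers fall outside this rule and were named with their values in view.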

Additional observations from a re-analysis of the deposited data

How the results depend on the processing

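Under every alternative except the fit without LPS replicate 3, the log2 fold changes of all 10 family members stayed above 0. Leaving out each library in turn gave log2 fold changes from -0.26 to 0.99 for NFKB1, -0.28 to 1.13 for REL, -0.19 to 1.21 for RELB, -0.0125 to 1.53 for NFKBIA and -0.39 to 0.89 for NFKBIZ. Leaving out libraries also gave 0 to 2 members, 0 to 1 IKK genes, 0 to 4 brakes, 0 to 16 targets, and 0 to 512 genes higher and 0 to 470 lower over all genes, the highest counts coming without LPS replicate 2. Without the filter on low counts 1 member, 1 IKK gene, 5 brakes and 24 targets were called, and 536 genes were higher and 349 lower. DESeq2 called 1 member, 1 brake and 5 targets, with 275 genes higher and 141 lower. Total counts gave 2 targets, 11 genes higher and 1 lower, and shifted the median log2 fold change of all genes from 0.01 to -0.12. RLE factors gave 1 gene lower. Requiring 10 counts in every library gave 0 targets and 0 genes higher, and limma-voom 0 targets and 2 genes higher. The cause of these shifts was not tested.

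Replicate numbers are shared by the groups, and the deviations of same-numbered libraries correlated at -0.24, 0.22 and 0.03. Differently numbered pairs ran from -0.25 to 0.22. With 3 libraries a group these values cannot tell whether same-numbered samples were paired. With the replicate block 42 genes were higher and 9 lower, with 0 members and 2 targets called. With 3 libraries a group, intervals such as -0.41 to 0.95 for RELA limit what can be detected.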
